A study of Homo sapiens with 5 samples.

Results

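The cyclins, the cyclin-dependent kinases (CDKs) they activate, the CDK inhibitors, the CDC25 phosphatases, the E2F transcription factors with their pocket proteins, and SKP2 with its CKS cofactors form the core machinery of the cell cycle. A set of 40 of these genes was examined among 20033 protein-coding genes. For each gene, peaks were taken from 5 kb upstream of the gene to its end in GENCODE 44 on GRCh38, and a gene was counted for a list when at least 1 peak touched that window. The peaks come from CUT&RUN, in which an antibody guides a nuclease to a chromatin-bound protein and the released fragments are sequenced. The samples were untreated, proliferating OVCAR8 cells, an epithelial ovarian tumor line that the study selected because it carries amplified *MYC* and *HSF1*. The cells were fixed for 1 minute in 1% formaldehyde, and 500000 cells entered each reaction with an antibody to MYC (2 libraries), to HSF1 (2 libraries) or with IgG (1 library). All samples are 1 cell line in 1 condition, and the labels do not say whether the replicates were separate cultures. Peak lists hold no expression values, so the identity of the line was not checked here.

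In a dividing cell, D cyclins with CDK4 or CDK6 and E cyclins with CDK2 phosphorylate the pocket proteins, which frees the E2F factors to activate the genes of DNA synthesis. CDK inhibitors hold these kinases back, CDC25 phosphatases release them from inhibitory phosphorylation, and SKP2 with a CKS protein marks an inhibitor for destruction. MYC binds DNA with its partner MAX, often at the E-box, and is known as a driver of the step from G1 to S phase. HSF1 binds heat shock elements and is known for inducing chaperones under stress, and it also occupies other genes in cancer cells.

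The 4 antibody libraries held 8265647 to 10084407 fragments after filtering and the IgG library held 9306942. On the chromosomes the first MYC list held 25623 peaks and the second 13278, while HSF1 had 6421 and 4459. MYC peaks were called by the authors at a p-value of 1e-10 and HSF1 peaks at 1e-04, so the number of genes with a MYC peak cannot be set against the number with an HSF1 peak as a measure of binding. Fold enrichment below is the ratio of the fragment pileup at the summit, the highest point of a peak, to the background that peak calling set from IgG. This background is not always local. For the strongest peaks of MYC replicate 1 it was the same 0.559 fragments at *CCNH*, *CDC25C*, *E2F2*, *E2F4*, *E2F5* and *E2F7*. With 2 lists for each factor no test between factors was run, and every share is a description. A gene without a peak lacked a call at this depth, and absence of the factor does not follow from it.

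Sequences are given for the sites where a MYC peak of both replicates covered a known motif, because they place each motif relative to the measured summit. Each line is 30 bases of GRCh38, read 5′ to 3′ on the strand of the gene, with the motif in capitals. The E-box searched was CACGTG, which reads the same on both strands. It lay inside a MYC peak of both lists at 10 of the 40 genes, of which 9 are shown and *CCNE2* is only named. This count was not made over all genes. By peak, 20.8% of the MYC peaks of the set held an E-box in replicate 1, near the 18.5% of all peaks. In replicate 2 the shares were 22.4% and 21.3%, so the E-box is not read as a trait of the set. Where a gene had several such sites, the site nearest to a summit of replicate 1 is shown.
CCND1, chr11:69644461-69644490, plus strand: gcctgcctgcacCACGTGctctgggcagcc
CCNF, chr16:2448225-2448254, plus strand: tgatagagctgtCACGTGacaggcaaatct
CDK4, chr12:57752394-57752423, minus strand: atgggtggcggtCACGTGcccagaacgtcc
CDK7, chr5:69234769-69234798, plus strand: accgacaggcgtCACGTGacgggtggggaa
CDKN2C, chr1:50960322-50960351, plus strand: gctttgcggctcCACGTGaccaccctcctg
CDKN2D, chr19:10569635-10569664, minus strand: ctcaggccttccCACGTGgcagctgcaggc
E2F3, chr6:20403522-20403551, plus strand: tgacgtttcgcaCACGTGcgcgcaggacgc
E2F6, chr2:11466051-11466080, minus strand: ggagctcccgggCACGTGaggccgtgccgc
E2F8, chr11:19240656-19240685, minus strand: gctgagcctgtgCACGTGtgtgtaagggga
The *CCND1* E-box lay 3319 bp past the start of the MANE transcript (the single reference transcript of a gene), 34 bp from the summit in MYC replicate 1 and 64 bp from the summit in replicate 2. The *CCNF* E-box lay 18792 bp past the start, inside an intron, 63 and 48 bp from the MYC summits. The *CDK7* E-box lay 103 bp before the start, at 140 and 241 bp from the summits. The *CDK4* site is in an annotated exon of that gene, as are those of *E2F6* and *E2F8*, and the remaining 6 are not in an exon of their own gene.

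The E2F site searched was TTTCGCGC or TTTGGCGC on both strands. It lay inside a MYC peak of both lists at 3 genes, a count not made over all genes, and the same layout is used.
CDC25A, chr3:48188443-48188472, minus strand: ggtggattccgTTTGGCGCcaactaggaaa
RBL1, chr20:37095995-37096024, minus strand: ttttcgcgcgcTTTGGCGCaggtggttgtg
SKP2, chr5:36152174-36152203, plus strand: ggagccgccgcGCGCCAAAgcgggaatctg
The sites in capitals lay 40 bp before the MANE start of *CDC25A*, 12 bp before that of *RBL1* and 77 bp past that of *SKP2*. At *RBL1* 2 E2F sites lay in the MYC peaks of both lists. The other is the TTTCGCGC left in lower case just before the capitals. The *SKP2* copy is in the reverse orientation relative to the gene.

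The highest HSF1 fold enrichments among the 40 genes were at *CKS1B* and *CKS2*, so the 250 bases before the RefSeq start of each are shown (GRCh38.p14, plus strand). The capitals mark TTTGAA or its reverse complement, 1 of the 2 spellings searched for the cell cycle homology region, a promoter element of late cell cycle genes. Neither stretch held an E-box.
CKS1B, chr1:154974431-154974680: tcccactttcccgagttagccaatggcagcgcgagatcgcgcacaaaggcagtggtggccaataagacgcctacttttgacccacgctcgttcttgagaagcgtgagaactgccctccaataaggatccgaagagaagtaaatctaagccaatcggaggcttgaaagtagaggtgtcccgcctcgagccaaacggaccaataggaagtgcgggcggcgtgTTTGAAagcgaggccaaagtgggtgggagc
CKS2, chr9:89310945-89311194: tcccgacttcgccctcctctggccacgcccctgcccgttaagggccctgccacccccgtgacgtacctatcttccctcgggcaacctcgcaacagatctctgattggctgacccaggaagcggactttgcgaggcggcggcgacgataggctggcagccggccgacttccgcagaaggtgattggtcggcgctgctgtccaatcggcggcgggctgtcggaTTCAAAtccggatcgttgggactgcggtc
The *CKS1B* stretch is 55.2% G and C and the *CKS2* stretch 65.2%. In the *CKS1B* stretch 28 bases are annotated as exon of other *CKS1B* transcripts, and in the *CKS2* stretch 0. Both stretches were touched by peaks of MYC replicate 1 and HSF1 replicate 1.

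MYC peaks were found at most of the machinery. In MYC replicate 1, 37 of the 40 genes (92.5%) had a peak, against 63.3% of all protein-coding genes. In MYC replicate 2, 33 genes (82.5%) had a peak, against 46.2%. The same 33 genes had a peak in both MYC lists, where the share over all genes was 45.4%. HSF1 peaks were found at 12 genes (30%) in replicate 1, against 16.5% of all genes, and at 13 genes (32.5%) in replicate 2, against 12.3%. A total of 9 genes (22.5%) had a peak in both HSF1 lists, against 7.81% of all genes. All 9 also had a peak in both MYC lists, as did 1293 of the 1564 protein-coding genes in both HSF1 lists. Peaks in all 4 lists were thus found at 22.5% of the set, against 6.45% of all genes. The shares of the set stood above the shares of all genes in every list. The median window was 24.6 kb in the set and 32.5 kb over all genes. Among the 9 genes the windows were 300.7 kb at *RB1*, 236.7 at *CDK6*, 120.4 at *CCND3*, 96.8 at *E2F3* and 49.9 at *SKP2*. They were 34.5 kb at *CCNF*, 18.3 at *CCND1*, 10.5 at *CKS2* and 9.6 at *CKS1B*. The part of window length in the shares was not tested.

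**Figure D1:**
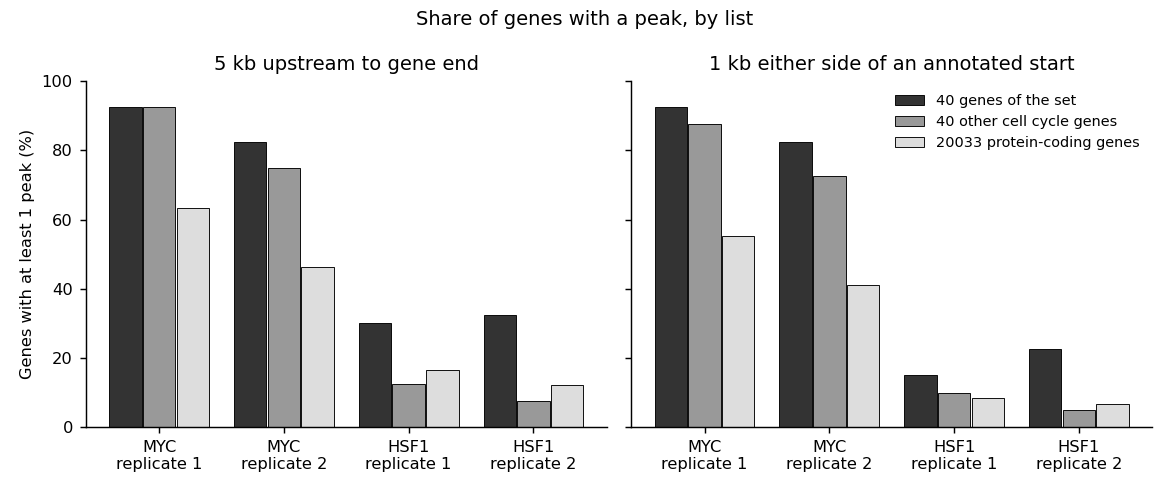
Share of genes with at least 1 peak (percent, vertical axis) in each of the 4 lists, for the 40 genes of the set, 40 other cell cycle genes and all 20033 protein-coding genes, within the whole gene window (left) or within 1 kb of an annotated start (right). In the gene window the set reached 92.5% and 82.5% in the MYC lists and 30% and 32.5% in the HSF1 lists.

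At promoters, taken as 1 kb either side of any annotated start of the gene, the MYC counts stayed at 37 and 33 genes, against 55.3% and 41.2% of all genes. All 33 genes with a MYC peak in both lists had one at a promoter in both. Over all genes, 9103 (45.4%) had a MYC peak in both lists and 8024 (40.1%) had one at a promoter in both. At all 33 the peaks of the 2 lists overlapped somewhere in the window. Over all genes this held at 8932 (44.6%), close to the 9103 with a peak in both lists. The HSF1 promoter counts were 6 genes (15%) in replicate 1, against 8.58%, and 9 genes (22.5%) in replicate 2, against 6.85%. At promoters 5 genes (12.5%) were in both HSF1 lists, against 3.49%, namely *CCND3*, *E2F3*, *RB1*, *CKS1B* and *CKS2*. The same 5 were in all 4 lists, against 3.05%. Over all genes, 611 of the 699 in both HSF1 lists at promoters were in all 4 lists.

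Since the lists differ in length, they were also limited to the 4459 peaks of lowest p-value in each, a choice made after seeing the data. A MYC peak then remained at 14 genes (35%) in replicate 1, against 20.6%, and at 15 genes (37.5%) in replicate 2, against 21.8%. HSF1 peaks were at 10 genes (25%) and 13 genes (32.5%), against 12.3% in both lists. The 12 MYC genes of both shortened lists were *CCND1*, *CCNE2*, *CCNF*, *CDK4*, *CDKN2A*, *CDKN2C*, *CDKN2D*, *CDC25B*, *E2F3*, *RBL1*, *CKS1B* and *CKS2*. The number in both shortened lists was not counted over all genes.

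The 40 genes fell into 6 patterns. No peak of any list was found at *CCNB2*, *CCND2* and *RBL2*, a pattern of 34.7% of all protein-coding genes. A peak in 1 MYC list and no HSF1 list, here always MYC replicate 1, was found at *CCNH*, *CDKN1C* and *CDKN2B*, against 15.0% of all genes. *E2F1* had a peak in MYC replicate 1 and HSF1 replicate 1, and 2.63% of all genes had 1 list of each factor. A further 18 genes had a peak in both MYC lists and in neither HSF1 list, against 29.2%, and 6 had both MYC lists and 1 HSF1 list, against 9.77%. The 9 genes of all 4 lists were *CCND1*, *CCND3*, *CCNF*, *CDK6*, *E2F3*, *RB1*, *SKP2*, *CKS1B* and *CKS2*. An HSF1 peak without any MYC peak was found at 0 of the 40 genes, and this was rare among all genes as well, at 1.21%.

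**Figure D2:**
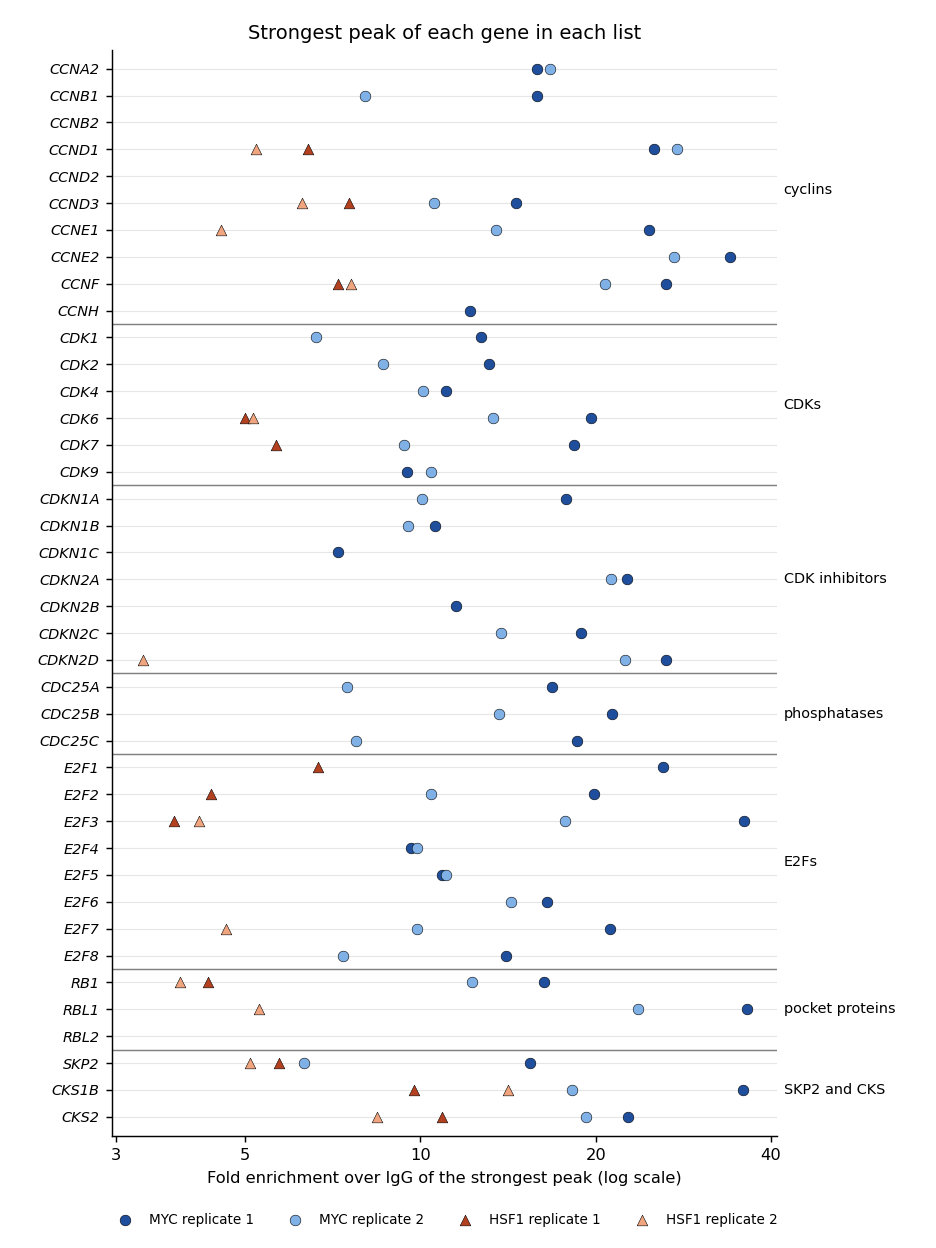
Fold enrichment over IgG (horizontal axis, log scale) of the strongest peak of each of the 40 genes in each list, with circles for MYC, triangles for HSF1, darker shades for replicate 1, and rows grouped by role. MYC values ran from 6.32 to 36.3, HSF1 values from 3.34 to 14.1, and the rows of *CCNB2*, *CCND2* and *RBL2* are empty.

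Among the 10 cyclins, 8 had a MYC peak in replicate 1 and 7 in both lists, against 63.3% and 45.4% of all genes. *CCNE2*, a cyclin that activates CDK2 at the entry to S phase, had the highest mean of the whole set, with a fold enrichment of 34.0 in MYC replicate 1 and 27.3 in replicate 2 (mean 30.62 ± 4.73, SD, n = 2). Both values stood near the top of their lists, at percentiles 98.31 and 98.28. The summits lay 102 and 89 bp from the start of the neighbouring gene *NDUFAF6* and 685 and 672 bp from the nearest start of *CCNE2*, so the peak belongs to a promoter that both genes share. No HSF1 peak was called there.

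*CCND1*, the D cyclin that brings CDK4 and CDK6 into action, gave 25.2 and 27.6 in the MYC lists (mean 26.40 ± 1.67, SD, n = 2), and was thus 1 of 5 genes with the higher value in replicate 2. Its strongest MYC peak was not at the promoter but a block of 3499 bp in replicate 1 and 3417 bp in replicate 2, with summits 4583 and 4256 bp upstream. There were 5 MYC peaks in each list along the gene. The HSF1 peaks had folds of 6.42 and 5.22, with summits 2026 and 1842 bp upstream, and both lay inside the MYC block. They sat next to each other without sharing a base.

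*CCNF*, which encodes an F-box protein of a ubiquitin ligase rather than a CDK activator, gave 26.4 and 20.8 in the MYC lists (mean 23.56 ± 3.96, SD, n = 2) at its promoter. The HSF1 peaks of *CCNF*, with folds of 7.22 and 7.61, were elsewhere, in an intron 18928 and 18821 bp past the start. The MYC lists had a second peak there, with folds of 16.4 and 10.6, and this is the site of the intronic E-box printed above. At the *CCNF* promoter only MYC was called.

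*CCND3*, a further D cyclin, gave MYC folds of 14.6 and 10.6 (mean 12.57 ± 2.84, SD, n = 2). The strongest peak was at the MANE start in replicate 1, but in replicate 2 at another annotated start far upstream, with its summit 30 bp from it. At the MANE start itself the MYC folds were 14.6 and 6.77 and the HSF1 folds 7.54 and 6.26, so in MYC replicate 2 the value there was below that of HSF1 replicate 1. *CCNE1*, the other E cyclin, gave MYC folds of 24.7 and 13.5 (mean 19.07 ± 7.92, SD, n = 2) and an HSF1 peak in replicate 2 alone, with a fold of 4.56.

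HSF1 peaks were called at 3 of the 10 cyclins in replicate 1, where 16.5% of all genes had one. In replicate 2 they were called at 4, where 12.3% of all genes had one. *CCNA2*, *CCNB1* and *CCNH* had no HSF1 peak, and these genes are too few to set them apart. *CCNA2*, the partner of CDK2 and CDK1 from S phase on, gave MYC folds of 15.9 and 16.7. *CCNB1*, the mitotic partner of CDK1, gave 15.9 and 8.03. *CCNH*, the partner of CDK7, had a MYC fold of 12.2 in replicate 1 and no peak in replicate 2. The peaks of *CCNA2* were close in height between replicates and those of *CCNB1* were not, while *CCNB2* and *CCND2* had no peak at all.

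All 6 CDKs had a peak in both MYC lists, against 45.4% of all genes. The folds were 9.49 to 19.6 in replicate 1 and 6.63 to 13.3 in replicate 2. *CDK6*, a partner of the D cyclins, was the highest by mean, with 19.6 and 13.3 (mean 16.46 ± 4.43, SD, n = 2). This strongest peak lay in an intron 203052 and 203160 bp past the MANE start, and *CDK6* had 11 MYC peaks in replicate 1 and 7 in replicate 2, the most of the 40 genes, in a window of 236.7 kb. Its HSF1 peaks had folds of 5.00 and 5.16, but at different places, 215257 and 203068 bp past the start. The HSF1 peak of replicate 2 lay on the strongest MYC peak, with summits 16 bp apart in MYC replicate 1, and that of replicate 1 overlapped no MYC peak.

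*CDK4* stood apart in how its peak was built. Its fold enrichments of 11.1 and 10.1 (mean 10.58 ± 0.68, SD, n = 2) were near the middle of their lists, at percentiles 41.32 and 46.27. The pileups of 69 and 52 fragments were among the higher ones, and the IgG background implied by pileup and fold was 5.33 and 4.25 fragments. The same background was 0.888 and 1.04 at *CCNA2*. The part of the IgG signal in the *CDK4* values was not tested.

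*CDK1*, the mitotic kinase, gave MYC folds of 12.7 and 6.63, and *CDK2*, the S phase kinase, 13.1 and 8.62. *CDK7*, which activates other CDKs and phosphorylates RNA polymerase II, gave 18.3 and 9.37 and an HSF1 peak of 5.65 in replicate 1 alone, in an intron. *CDK9*, a kinase of transcription elongation, gave 9.49 and 10.4, from different peaks. Apart from *CDK6* and *CDK7*, no CDK had an HSF1 peak.

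All 7 CDK inhibitors had a MYC peak in replicate 1, and 5 had one in both lists, against 63.3% and 45.4% of all genes. *CDKN2D*, an inhibitor of CDK4 and CDK6, was the highest with 26.4 and 22.5 (mean 24.46 ± 2.82, SD, n = 2) at its promoter. *CDKN2A*, which encodes an inhibitor of the same kinases and, from another start, the ARF protein, gave 22.7 and 21.2 (mean 21.95 ± 1.03, SD, n = 2) at the start used by the MANE transcript. A second MYC peak, with folds of 14.8 and 11.4, lay 126 and 143 bp from another annotated start further upstream, 31 and 110 bp from that of *CDKN2B-AS1*.

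*CDKN2C* gave 18.9 and 13.8, *CDKN1A* 17.8 and 10.1, and *CDKN1B* 10.6 and 9.52. *CDKN2C*, like *CDKN2D*, inhibits CDK4 and CDK6, whereas *CDKN1A* and *CDKN1B* act more widely on cyclin and CDK complexes. The replicate 1 peaks of *CDKN1C* (7.22) and *CDKN2B* (11.5) were not called in replicate 2, and that of *CDKN1C* was the lowest of all 37 genes. HSF1 peaks were called at 0 of the 7 inhibitors in replicate 1, where 16.5% of all genes had one, and at 1 of 7 in replicate 2, where 12.3% had one, so these counts are too small to set the inhibitors apart. The HSF1 peak was at *CDKN2D*, and its fold of 3.34 was the lowest among the strongest HSF1 peaks of the genes.

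The CDC25 phosphatases had a MYC peak in both lists at 3 of 3 genes, against 45.4% of all genes. They had no HSF1 peak, where 16.5% and 12.3% of all genes had one in replicates 1 and 2. With 3 genes these counts are too small to set the phosphatases apart. *CDC25B* gave 21.3 and 13.7 (mean 17.49 ± 5.43, SD, n = 2), *CDC25C* 18.6 and 7.76, and *CDC25A* 16.8 and 7.49. For *CDC25C* and *CDC25A* the 2 values are from different peaks. The *CDC25C* value of replicate 1 is from a peak 90 bp from 1 annotated start and that of replicate 2 from a peak 144 bp from another, and both lie at starts of the neighbouring gene *FAM53C*. At the second of these places replicate 1 had a fold of 9.09.

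Of the 8 E2F genes, 8 had a MYC peak in replicate 1 and 7 in both lists, against 63.3% and 45.4% of all genes. *E2F3*, an activator of S phase genes, was the highest with 36.0 and 17.7 (mean 26.87 ± 12.91, SD, n = 2). The replicates thus differed by a factor of 2.03 here, although both values were high in their lists. *E2F3* also had HSF1 peaks in both lists, with folds of 3.78 and 4.18, at different places. The summit of replicate 1 lay 446 bp from the nearest *E2F3* start and closer to that of a neighbouring gene, and the summit of replicate 2 lay 1175 bp past the MANE start, inside the broad MYC peak.

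*E2F1*, the founding activator, had a MYC peak of 26.1 in replicate 1, above 94.67% of that list, and none in replicate 2. Its HSF1 peak, with a fold of 6.67, was likewise in replicate 1 alone, with summits 14 bp apart. *E2F2*, the remaining activator, gave 19.9 and 10.4 for MYC and an intronic HSF1 peak of 4.37 in replicate 1. *E2F1* was the only gene with a MYC peak above 20 in replicate 1 that was missing from MYC replicate 2.

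Among the repressor E2Fs, *E2F4* gave 9.62 and 9.89, so the MYC replicates were nearly equal there. *E2F5* gave 10.9 and 11.1, but from different peaks. Replicate 1 had 7.94 at the peak of 11.1, and replicate 2 had 10.5 at the peak of 10.9. *E2F6*, a repressor that acts without pocket proteins, gave 16.5 and 14.3. The atypical repressors *E2F7* and *E2F8* gave 21.2 and 9.89, and 14.0 and 7.37. An HSF1 peak was called at *E2F7* in replicate 2, with a fold of 4.65, and at no other repressor.

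The pocket proteins differed among themselves. *RBL1* (p107) had the highest MYC value of the 40 genes in replicate 1, at 36.3, and 23.7 in replicate 2 (mean 30 ± 8.94, SD, n = 2). The peaks lay at a promoter that holds the 2 E2F sites printed above. Its HSF1 peak of 5.29 was in replicate 2 alone. *RB1*, the retinoblastoma gene, gave MYC folds of 16.3 and 12.3 (mean 14.29 ± 2.84, SD, n = 2). HSF1 peaks at the *RB1* promoter had folds of 4.33 and 3.51 and did not overlap each other. The *RB1* window of 300.7 kb also takes in the start of *RCBTB2*, at which both MYC lists and HSF1 replicate 2 had a peak. *RBL2* (p130) had no peak in any list.

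At SKP2 and the CKS proteins HSF1 was called in both lists at 3 of 3 genes, against 7.81% of all genes. MYC was called likewise, against 45.4%. This was the highest HSF1 share of the role groups, and 3 genes are too few to set the group apart. *CKS1B*, the cofactor through which SKP2 recognises its substrate, had MYC folds of 35.8 and 18.2 (mean 27.00 ± 12.44, SD, n = 2), with pileups of 115 and 70. Its HSF1 folds of 9.77 and 14.1 (mean 11.95 ± 3.09, SD, n = 2) lay above 93.3% and 93.59% of their lists. The HSF1 summits lay 457 and 501 bp past the MANE start, and the MYC summits 62 and 92 bp past it. All 4 peaks covered the same promoter.

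*CKS2*, the paralogue, had MYC folds of 22.8 and 19.2 (mean 21.00 ± 2.48, SD, n = 2) and HSF1 folds of 10.9 and 8.44 (mean 9.68 ± 1.74, SD, n = 2). HSF1 pileups of 57 and 47 fragments were the highest of the set, and the implied IgG background was 4.32 and 4.69 fragments for HSF1 and 2.56 and 3.42 for MYC. The HSF1 summits lay 264 and 231 bp before the start, that of replicate 1 just outside and that of replicate 2 inside the stretch printed above, and the MYC summits 542 and 505 bp before it. *SKP2*, the F-box protein itself, had MYC folds of 15.4 and 6.32 (mean 10.88 ± 6.45, SD, n = 2) at its promoter. The HSF1 peaks of *SKP2*, with folds of 5.73 and 5.11, lay in an intron 4163 and 4567 bp past the start, where MYC was called in replicate 1 alone, with a fold of 12.6.

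**Figure D3:**
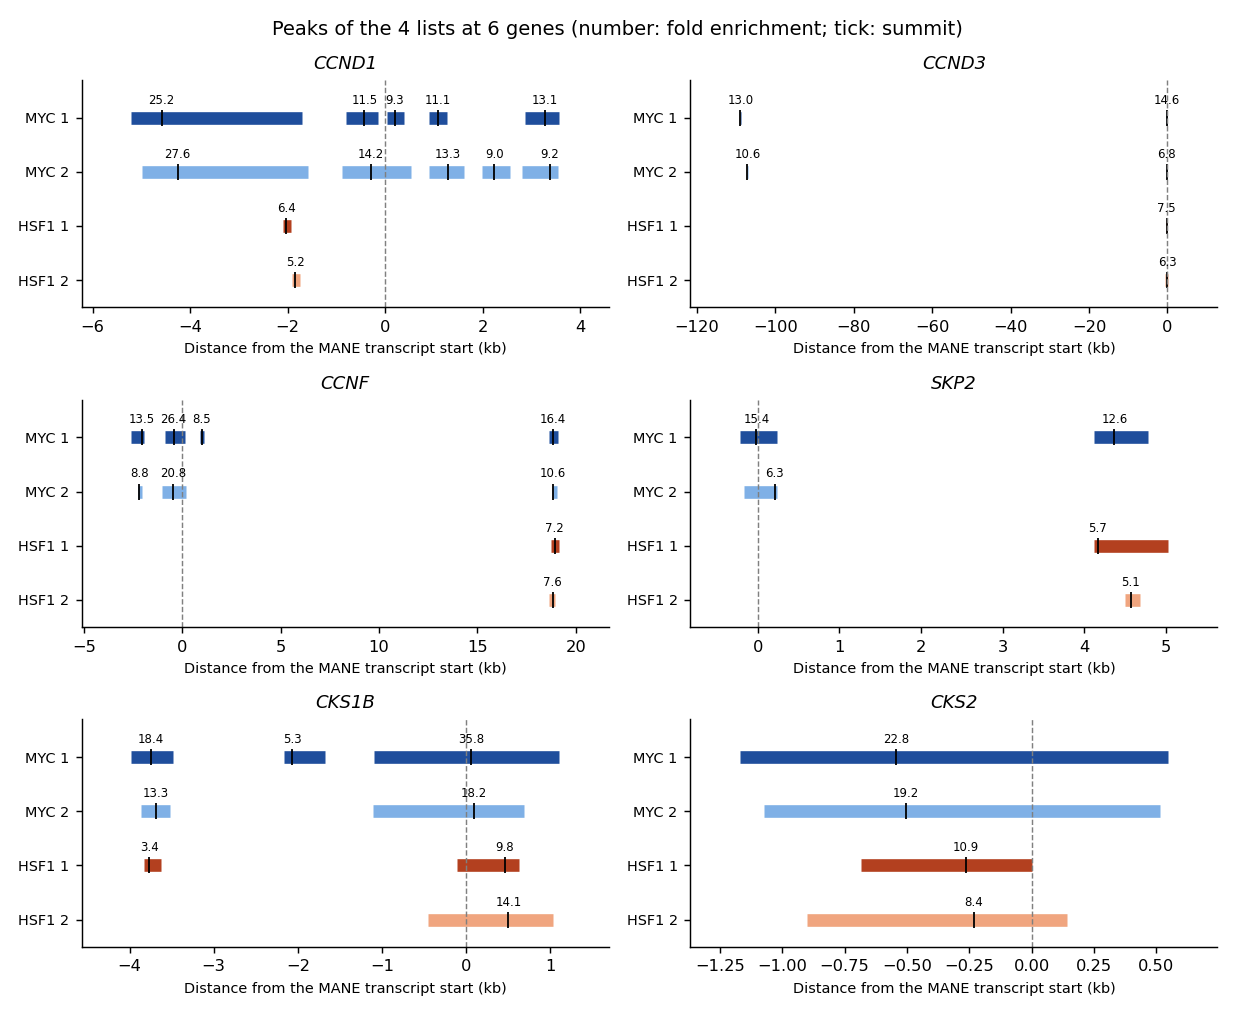
Peaks of the 4 lists at *CCND1*, *CCND3*, *CCNF*, *SKP2*, *CKS1B* and *CKS2*, drawn as bars against the distance from the MANE transcript start (kb, horizontal axis, direction of transcription to the right), with a tick at each summit and the fold enrichment above it. HSF1 and MYC bars overlap at the start of *CCND3*, *CKS1B* and *CKS2*, in an intron of *CCNF* and upstream of *CCND1*. They also overlap in an intron of *SKP2*, for MYC replicate 1 alone, and upstream of *CKS1B*, for HSF1 replicate 1 alone.

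The MYC replicates ranked the genes alike but not at equal height. Over the 33 genes with a peak in both lists, the strongest fold was higher in replicate 1 at 28 and higher in replicate 2 at 5, with a median ratio of 1.47. The largest gaps between strongest peaks were at *SKP2* (a ratio of 2.44), *CDC25C* (2.40) and *CDC25A* (2.24). At *CDC25C* and *CDC25A* the strongest peaks of the replicates are different peaks. Where peaks of both replicates overlapped, the folds were 9.09 and 7.76 at *CDC25C*, and 16.8 and 4.94 at *CDC25A*. Ratios from 0.91 to 1.09 were found at *CCNA2*, *CCND1*, *CDK4*, *CDK9*, *CDKN2A*, *E2F4* and *E2F5*, with different peaks compared at *CDK9* and *E2F5*. Across the 33 genes the log2 folds of the strongest peaks, overlapping or not, had a Pearson r of 0.71 and a Spearman rho of 0.71. This is a description over genes that share the same 2 libraries and the same IgG background.

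**Figure D4:**
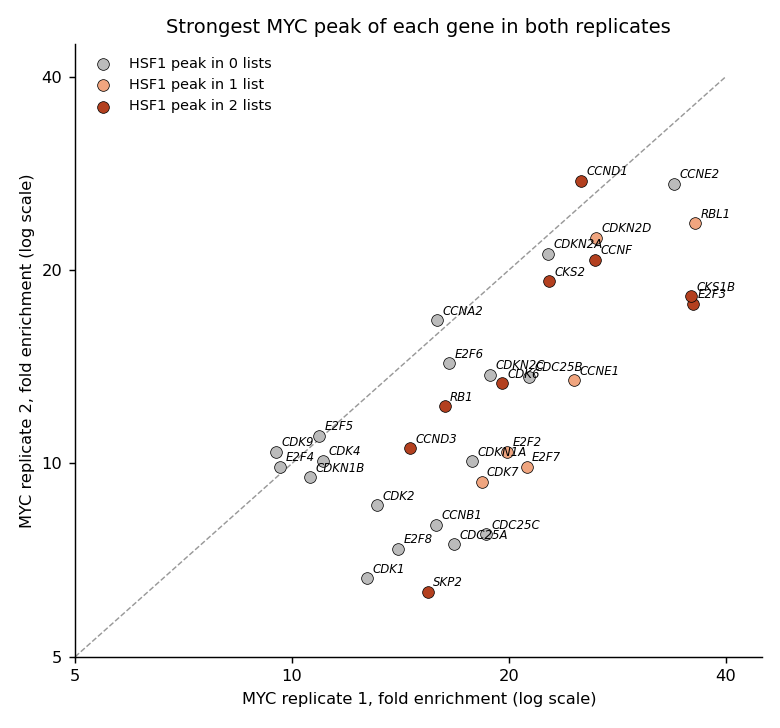
Fold enrichment of the strongest MYC peak in replicate 1 (horizontal axis) and replicate 2 (vertical axis), both on log scales, for the 33 genes with a peak in both lists, coloured by the number of HSF1 lists with a peak. The dashed line marks equal folds, and 28 genes lie below it and 5 above.

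The strongest MYC peaks of the set had a median fold of 17.8 in replicate 1, against 15.2 over all genes with a peak, and 11.1 in replicate 2, against 12.0. The set was thus higher than all genes in 1 replicate and lower in the other, and no difference in peak height is read from this. For HSF1 the medians were 6.08 against 5.29 and 5.16 against 5.41, again with the order changing between replicates. HSF1 folds were higher in replicate 1 at 5 of the 9 genes called in both lists and higher in replicate 2 at 4.

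The share of peaks at promoters of any gene was taken first. MYC replicate 1 had 77 peaks in the 40 windows, of which 57 (74.0%, 95% Wilson interval 63.3 to 82.5%) had their summit within 1 kb of an annotated start of a protein-coding or lncRNA gene, against 50.8% of all peaks of the list. MYC replicate 2 had 58 such peaks, 51 of them at promoters (87.9%, 77.1 to 94.0%), against 68.5%. HSF1 replicate 1 had 13 peaks, 7 at promoters (53.85%, 29.1 to 76.8%), against 27.7%, and HSF1 replicate 2 had 15, of which 10 (66.7%, 41.7 to 84.8%), against 33.03%. The intervals cover counting error only. The windows hold at least 1 start by construction, whereas all peaks include those far from genes.

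The strongest MYC peak was within 1 kb of a start of its own gene at 34 of 37 genes in replicate 1 and 31 of 33 in replicate 2. For HSF1 this held at 6 of 12 and 8 of 13. The same count over all genes was not made. Over all genes, 12677 had a peak in MYC replicate 1 and 11080 had one at a promoter, with 9265 and 8245 in replicate 2. For HSF1 these numbers were 3315 and 1718 in replicate 1, and 2467 and 1372 in replicate 2. No trait of the set is read from the contrast between the factors. In MYC replicate 1, 39 peaks were nearest to a start of the gene itself, 13 lay within 1 kb of it but nearer to another gene's start, 5 lay at the promoter of another gene alone and 20 lay away from promoters. The neighbours included *PMEL* at *CDK2*, *FAF1* at *CDKN2C*, *FAM53C* at *CDC25C* and *SHC1* upstream of *CKS1B*. A peak at such a pair of starts cannot be assigned to either gene from these lists.

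**Figure D5:**
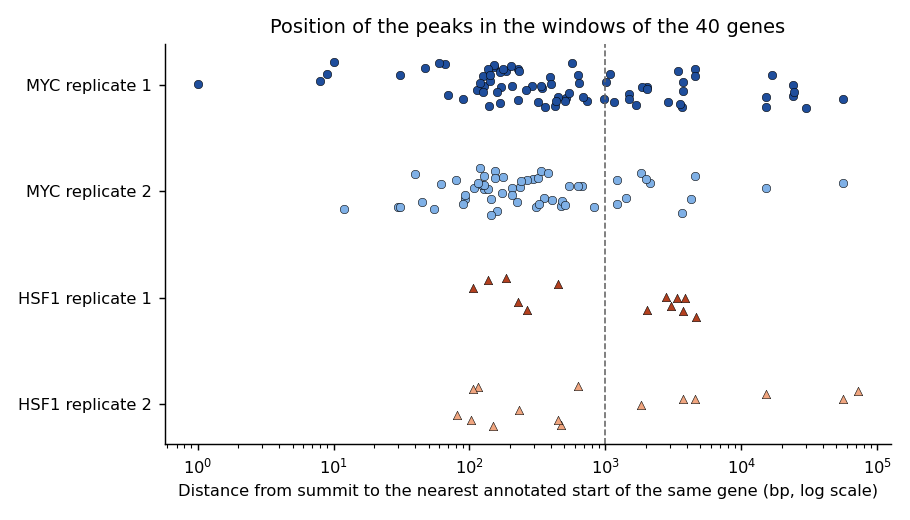
Distance from each peak's summit to the nearest annotated start of the same gene (bp, horizontal log axis) for the peaks in the 40 windows, with 1 row for each list. Points are peaks, spread vertically for visibility, and the dashed line marks 1 kb. HSF1 peaks lie on both sides of the line, and most MYC peaks lie left of it.

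Where HSF1 was called at these genes, MYC was mostly called at the same place. Of the 13 HSF1 peaks of replicate 1, 12 (92.3%) shared at least 1 bp with a peak of MYC replicate 1, against 67.0% of all peaks of that HSF1 list, and 8 (61.5%) with a peak of MYC replicate 2, against 34.8%. Of the 15 HSF1 peaks of replicate 2, 14 (93.3%) overlapped MYC replicate 1, against 57.6%, and 12 (80.0%) overlapped MYC replicate 2, against 39.2%. The exceptions in MYC replicate 1 were the *CDK6* peak of HSF1 replicate 1 and an *RB1* intronic peak of HSF1 replicate 2. Median distances between the summits of overlapping peaks ran from 124.5 to 228 bp over the 4 pairs of lists, and the longest was 2741 bp, in the broad block upstream of *CCND1*. Conversely, genes with an HSF1 replicate 1 peak on a MYC peak made up 29.7% of the genes of the set with a peak in MYC replicate 1, against 20.9% over all such genes, and 21.2% of those in MYC replicate 2, against 18.9%. For HSF1 replicate 2 the shares were 35.1%, against 14.3%, and 36.4%, against 15.0%.

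Of the 9 genes with a peak in both HSF1 lists, the peaks of the 2 lists overlapped at 5. Over all genes the matching numbers were 1564 and 1285. These 5 of the 40 genes were *CCND3*, *CCNF*, *SKP2*, *CKS1B* and *CKS2*, against 1285 (6.41%) of all genes. At 4 of them, all but *SKP2*, they also overlapped MYC peaks called in both lists. This held at 732 of those 1285 genes, or 3.65% of all genes. *CCND3*, *CCNF*, *CKS1B* and *CKS2* also had an HSF1 peak with a p-value of 1e-10 or lower, the MYC threshold, in both lists, against 2.83% of all genes. Over peaks, 5 of 13 HSF1 peaks of replicate 1 (38.5%) were met by a peak of replicate 2, near the 34.0% of all peaks of that list, and 5 of 15 (33.3%) the other way, below the 48.3% of all peaks. For MYC, 51 of 77 peaks (66.2%) of replicate 1 were met in replicate 2, against 46.9%, and 52 of 58 (89.7%) the other way, against 92.6%.

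Motifs were counted within 100 bp of the summit on both strands. An E-box was found in 6 of 77 MYC peaks in replicate 1 (7.79%, 95% Wilson interval 3.62 to 16.0%), near the 6.74% of all peaks, and in 6 of 58 in replicate 2 (10.3%, 4.83 to 20.8%), against 6.82%. Over whole peaks the shares were 20.8% and 22.4%, close to 18.5% and 21.3% of all peaks. An E2F site was found within 100 bp of the summit in 5 of 77 MYC peaks in replicate 1 (6.49%), against 0.636% of all peaks, but in 0 of 58 in replicate 2, against 0.587%. It was found in 7 of 77 whole MYC peaks in replicate 1 (9.09%), against 1.82% of all peaks and 3.09% of promoter peaks, and in 5 of 58 in replicate 2 (8.62%), against 2.27% and 3.06%. A heat shock element, searched as 3 alternating units of GAA and TTC spaced by 2 bases and starting with either, was in 0 of 13 and 0 of 15 HSF1 peaks of the set, where 6.51% and 5.97% of all HSF1 peaks held one.

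RefSeq promoter windows of 300 bp, from 250 bp before to 50 bp after the start, were matched for 33 of the 40 genes and compared with those of 27305 genes. The E2F site was in 5 of the 33 (15.2%), against 1.40% of all genes, at *CDC25A*, *CDK1*, *E2F1*, *E2F2* and *RBL1*. The E-box was in 6 (18.2%), against 8.78%, at *CCNB1*, *CDK4*, *CDK6*, *CDK7*, *CDKN2C* and *E2F3*. The cell cycle homology region, TTTGAA or TTCGAA, was in 9 (27.3%), against 19.5%, at *CCNB2*, *CCNF*, *CDC25B*, *CDC25C*, *CDK1*, *CKS1B*, *CKS2*, *E2F3* and *RBL2*. The heat shock element was in 0, against 0.608%. The promoters of the set had a median G and C content of 63.7%, against 58.7% for all promoters, and a match is a description of the letters and not of binding. Of the 3 genes with no peak in any list, *CCNB2* and *RBL2* had the homology region, and *CCND2* was not among the matched promoters.

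A list of 40 other cell cycle genes, mostly further cyclins and CDKs, regulators such as WEE1 and PKMYT1, and subunits of the MuvB complex, which binds the homology region, was counted in the same way. MYC peaks were at 37 (92.5%) in replicate 1 and 30 (75.0%) in replicate 2, close to the 37 and 33 of the set. HSF1 peaks were at 5 (12.5%) in replicate 1 and 3 (7.5%) in replicate 2, below the shares of all genes, where the set had 12 and 13. Both HSF1 lists had a peak at 2 of these genes. *CCNT2*, a cyclin partner of CDK9, had HSF1 folds of 4.20 and 6.03 and MYC folds of 29.7 and 13.3. *LIN52*, a MuvB subunit, had HSF1 folds of 9.99 and 4.56 and MYC folds of 34.6 and 13.9. The difference between the lists of genes was not tested.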

How the data were processed

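CUT&RUN peak lists of 2 MYC and 2 HSF1 libraries of OVCAR8 cells were used. The authors aligned paired-end reads to GRCh38 with Bowtie 2 and called peaks in each library against 1 IgG library with MACS 2.2.9.1, keeping duplicates once and scaling the larger library down. The file headers name the IgG library as replicate 2, and the labels list 1 IgG control. The deposited columns used were pileup, which is the signal where fragments stack highest, −log10 of the p-value, and fold enrichment, the ratio of that signal to background. A q-value column was not used.

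The lists were joined to gene windows of GENCODE 44 with Python 3.11.15, pandas 2.3.3, numpy 2.4.6, scipy 1.17.1 and pysam 0.24.0, and drawn with matplotlib 3.10.9. The assignment of peaks was tested on simulated peaks. An overlap needed 1 bp. The IgG background was computed from pileup and fold with 1 added to both signals. The members, lists and rules were chosen with earlier results of these data known. Values in full are given for the 10 genes with the highest mean MYC fold, genes in both HSF1 lists, genes without a peak and the highest gene of each role. Alternatives changed the window, the overlap, the threshold and the replicates.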

Additional observations from a re-analysis of the deposited data

How the results depend on the processing

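The 33 genes with a MYC peak in both lists ranged from 33 to 37 when either replicate was left out, and became 20 with a p-value of 1e-20 or lower. The 9 genes with an HSF1 peak in both lists ranged from 12 to 13 with a replicate left out. They became 5 at promoters around any annotated start, 3 around the start of the gene record, 16 in either list, 5 where the peaks of both lists had to overlap and 4 at a p-value of 1e-10 or lower. The 4 genes with overlapping HSF1 and MYC peaks of both lists ranged from 11 to 12 with a replicate left out, and became 2 around the start of the gene record, 16 in either list and 2 with summits within 200 bp. With each list kept to its 4459 peaks of lowest p-value, an alternative chosen after seeing the data, the MYC count became 12, the HSF1 count 8 and the overlap 2. The mean share of HSF1 peaks at promoters was 60.26% and became 71.28% within 3 kb of a start, and ranged from 53.85% to 66.67% with a replicate left out. The MYC promoter share ranged from 74.03% to 87.93% around a mean of 80.98%. The mean share of MYC peaks with an E-box was 9.07% near the summit, 7.79% to 10.34% with a replicate left out, and became 21.59% over whole peaks. A wider window or fewer conditions admit more peaks by construction. No paired analysis was possible because no result comes from a test. Each factor has 2 lists and 1 shared IgG library, and depth was 8265647 fragments in the smallest library, so a gene without a peak may lie under the threshold.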
